A study of Mus musculus with 8 samples.

Results

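miR-10, miR-99 and miR-125 are conserved miRNA families whose genes lie in Hox clusters or in small clusters with let-7 genes. This account covers their genes Mir10a, Mir10b, Mir99a, Mir99b and Mir125a in mouse spleen B cells, 5 of the 2202 miRNA genes counted. They were chosen by gene symbol, matched through mm10 coordinates, with their counts and fold changes in all 8 libraries already known. Their levels, folds and calls are therefore a description of where these genes lie in a fit over all features, and not independent support for the choice. A miRNA guides an Argonaute protein such as AGO2 to mRNAs that pair with its seed, the bases 2 to 8 of the mature RNA. The miR-10 genes sit beside Hox4 genes and the family is known to act on Hox transcripts, miR-99 and its relative miR-100 are known to act on the mTOR pathway, and miR-125 is known for its part in blood stem cells and in B cell differentiation.

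All libraries came from mice homozygous for an HA-tagged Ago2 allele (Ago2HA/HA), in the input RNA as in the immunoprecipitate (IP) made with an anti-HA antibody. B cells were purified from spleen by removing CD43-bearing cells, and were used resting or after activation in culture (proliferating). There were 4 groups of 2 libraries: resting input, resting IP, proliferating input and proliferating IP. Neither the activating agent nor the age of the animals is stated in the labels. Per the labels, IPs from cells without the tag yielded no RNA, so no untagged library gives the background of the IP. The titles number the libraries of a group 1 and 2 without naming animals, so every p below sees the spread between these particular libraries, which may be technical.

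Library totals were 213418 to 386598 counts in the inputs and 788869 to 1681148 in the IPs. A fit over all 8 libraries tested 219 features, the 5 genes among them, with edgeR's quasi-likelihood test and Benjamini-Hochberg adjustment, and a call below means an adjusted p under 0.05. Lymphocyte markers took 45.3% ± 1.12 of the resting input and 37.2% ± 0.102 of the proliferating input (mean ± SD, n = 2 here and below). This sum holds opposite shifts. Mir150 was 11.6 times as high in the resting as in the proliferating input, and Mir155 10.3 times lower (edgeR adjusted p = 4.9e-15 for each). Mir142 of the 6 had no count, and since the way reads were assigned is not stated, its 0 is not read as a level. The myeloid Mir223 took 2.0% ± 1.20 of the resting input and 2.20% ± 1.05 of the resting IP, against 0.28% ± 0.0832 and 0.0880% ± 0.0260 in proliferating cells. Erythroid markers stood at 0.0186% ± 0.0102 in resting and 0.00231% ± 0.000708 in proliferating inputs, epithelial markers 0.119% ± 0.0141 and 0.0673% ± 0.0122, and the endothelial Mir126a, also a progenitor miRNA, 0.0213% ± 0.00570 and 0.0723% ± 0.0137, with Mir126b at no count. Mir451a, of the 3 erythroid markers listed, matched no named feature and is missing from their sum. Markers of other cell types thus moved with cell state, and their part in the differences between states below was not tested.

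The mature 5′ arms of the 5 genes and of their nearest relatives are printed because seed and single-base differences decide which reads and which targets the genes share. They come from RefSeq (GRCm38.p6), which held an entry for 5 of 5 genes, and are written 5′ to 3′ with the seed in capitals.
miR-10a-5p: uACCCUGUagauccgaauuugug
miR-10b-5p: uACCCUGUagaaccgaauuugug
miR-99a-5p: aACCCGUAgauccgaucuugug
miR-99b-5p: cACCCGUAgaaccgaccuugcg
miR-100-5p: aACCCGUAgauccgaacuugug
miR-125a-5p: uCCCUGAGacccuuuaaccuguga
miR-125b-5p: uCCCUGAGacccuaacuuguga

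The 5 genes carry 3 seeds. The miR-10 seed ACCCUGU was shared by miR-10a-5p and miR-10b-5p alone among the mature mouse miRNAs of the table. The miR-99 seed ACCCGUA was held by miR-99a-5p, miR-99b-5p and miR-100-5p, and the miR-125 seed CCCUGAG by 5 mature RNAs, among them miR-125a-5p and miR-125b-5p. Counting positions from 1 at the 5′ end, miR-10a-5p and miR-10b-5p differ by the single substitution U12A, and miR-99a-5p and miR-100-5p by U16A. miR-99a-5p and miR-99b-5p differ at 4 positions (A1C, U11A, U16C and U21C). miR-125a-5p, of 24 bases, and miR-125b-5p, of 22, are identical over their first 13 bases. miR-10a-5p and miR-99a-5p have different seeds but share a run of 10 bases, GUAGAUCCGA, which begins inside the seed of each. The sources used here do not say how reads that fit a pair of such genes were assigned, so the split within a pair is uncertain, most of all for Mir10b beside the far more abundant Mir10a.

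Mir10a (ENSMUSG00000065519.1, chr11:96317165-96317274, plus strand, mm10) lies within the span of Hoxb3, and Mir10b (ENSMUSG00000065500.3, chr2:74726070-74726137, plus strand) within the spans of Hoxd3 and Hoxd4. The annotation used gives the spans of these genes and not their exons. Mir10a was the leading member in every library. In resting cells it had 489 and 540 counts in input replicates 1 and 2 and 6001 and 2937 in the IPs, and in proliferating cells 349 and 178 in the inputs and 1042 and 1520 in the IPs. As CPM, counts scaled to a common library total with TMM factors, these were 1369.6 and 1327, 4481 and 3934, 986 and 625, and 1525 and 1289.6. Both resting IPs stood above all 6 other libraries, and its rank among features went from 40 in both resting inputs to 28 and 27 in the resting IPs.

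In resting cells 2 of the 5 genes were higher in the IP, Mir10a and Mir10b, and 1 was lower, Mir125a. Of all 219 features 13.2% were called higher and 15.5% lower (29 and 34 features, but 33 and 23 with upper-quartile factors). The number called lower was 17 and 19 without resting input replicate 1 or 2, 21 and 20 without proliferating input replicate 1 or 2, and 13 without both resting replicate 1 libraries. The median log2 fold change of the 5 genes was 1.45, against -0.05 over all features. In resting cells the IP held 3.12 times as much Mir10a, 4207 ± 387 CPM against 1348 ± 30.2 CPM (log2 ratio 1.64, SE 0.30, edgeR adjusted p = 3.0e-05), and the call held in all 18 alternatives run (1.40 to 1.88). Mir10b rose there from 6 and 5 input counts to 120 and 46 IP counts. It was 5.19 times as high in the IP (log2 ratio 2.38, SE 0.82, edgeR adjusted p = 0.025), rank 9 of 219 among fold changes. This call rests on 11 input counts and was made in 10 of 17 alternatives. Its edgeR adjusted p was 0.072 without resting input replicate 1, 0.16 without resting input replicate 2, 0.24 without resting IP replicate 1, 0.072 without resting IP replicate 2 and 0.053 without proliferating IP replicate 1.

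**Figure D1:**
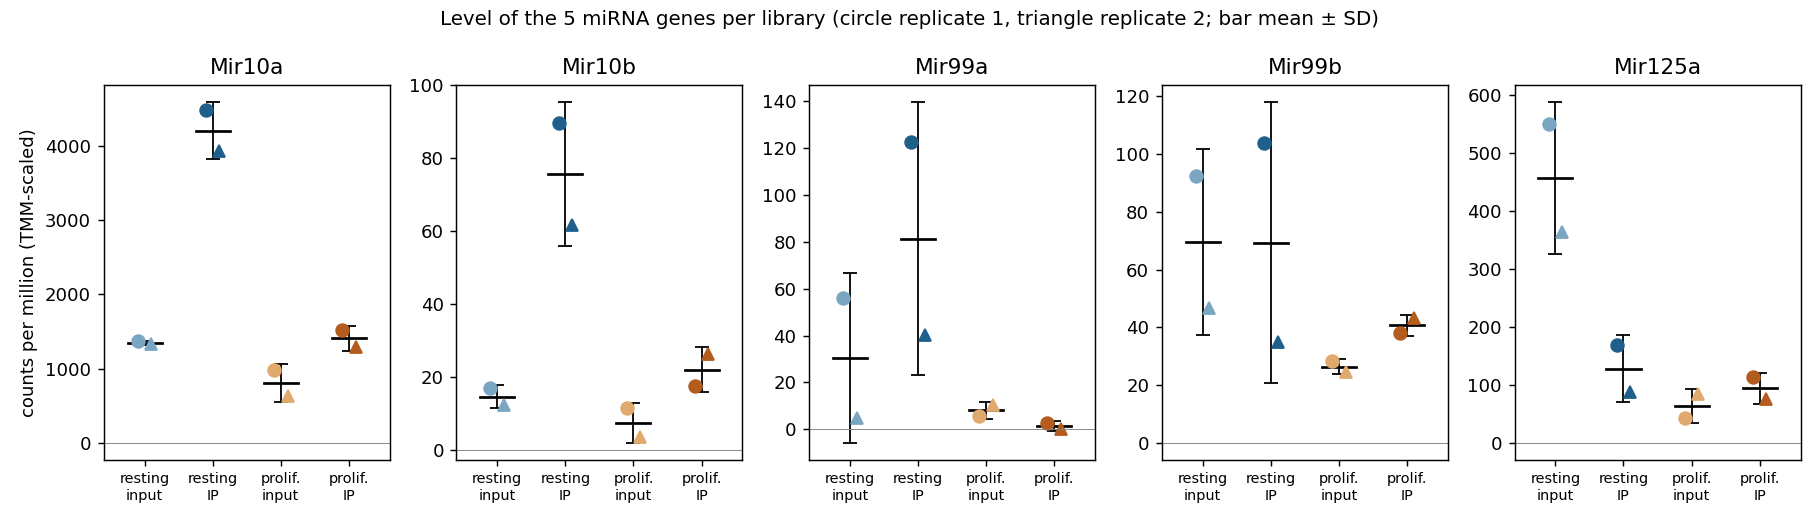
Level of each gene in CPM with TMM factors (vertical axis, linear, a separate scale per gene) in the 4 groups (horizontal axis). Circles are replicate 1, triangles replicate 2, and bars give the mean ± SD. Mir10a and Mir10b are highest in both resting IPs, and Mir125a in both resting inputs.

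In proliferating cells the same comparison called 1 of the 5 genes higher, Mir10a, and none lower (none at an unadjusted edgeR p under 0.05 either), beside 13.2% of all features higher and 13.7% lower (29 and 30 features, but 16 and 60 with library totals). The number of features called there fell from 59 to 33 and 30 without proliferating input replicate 1 or 2, and to 37 without proliferating IP replicate 2, and the number called lower from 30 to 18 without proliferating IP replicate 1. The median log2 fold change of the 5 genes was 0.62, against 0.11 over all features. Mir10a stood at 1407 ± 166 CPM in the IP and 805 ± 255 CPM in the input, 1.74 times as high (log2 ratio 0.80, SE 0.30, edgeR adjusted p = 0.039). This call was close to the threshold and was made in 9 of 18 alternatives. With library totals the log2 fold change was 0.20 (edgeR adjusted p = 0.59), and without proliferating input replicate 2, the lowest library of this gene, it was 0.18 (edgeR adjusted p = 0.79). The edgeR adjusted p was 0.27 without resting input replicate 1, 0.057 without resting input replicate 2 and 0.078 without proliferating IP replicate 1. Mir10b had 4 and 1 input counts and 12 and 31 IP counts in these cells (log2 ratio 1.51, SE 0.95, edgeR adjusted p = 0.26). Pooled over the libraries, 43 counts stood against 5, a scaled ratio of 2.95 whose 95% exact interval, for counting error only, was 1.17 to 9.55. The enrichment of Mir10a was not shown to differ between the states (difference of log2 fold changes 0.84, SE 0.42, edgeR adjusted p = 0.18), though it passed with library totals (1.20, edgeR adjusted p = 0.046) and without proliferating input replicate 2 (1.68, edgeR adjusted p = 0.033). For Mir10b the difference was 0.87 (SE 1.31, edgeR adjusted p = 0.73).

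Between the cell states, Mir10a was 1.67 times as high in the resting as in the proliferating input (log2 ratio 0.74, SE 0.30, edgeR adjusted p = 0.040) and 2.99 times as high in the resting as in the proliferating IP (log2 ratio 1.58, SE 0.30, edgeR adjusted p = 2.1e-05). In these bulk samples fewer cells of a type and less RNA per cell cannot be told apart. Each state also has its own count table, so state and table cannot be told apart. The difference in the IP was called in all 18 alternatives (1.53 to 2.22), and that in the input in 12 of 18. In the input the log2 fold change was 0.31 without proliferating input replicate 2 (edgeR adjusted p = 0.47), 0.39 with library totals (edgeR adjusted p = 0.22) and 0.67 without resting input replicate 1 (edgeR adjusted p = 0.19), and the edgeR adjusted p was 0.068 without resting input replicate 2. For Mir10b the ratio between the IPs was 3.40 in favour of resting cells (log2 ratio 1.77, SE 0.74, edgeR adjusted p = 0.043), a call made in 9 of 17 alternatives and lost when any 1 of the 4 IP libraries was left out (edgeR adjusted p from 0.078 to 0.24). In the input Mir10b did not pass (0.90, SE 1.04, edgeR adjusted p = 0.48).

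Mir10a held 98.9% ± 0.208 of the counts of the miR-10 pair in the resting input, 98.2% ± 0.296 in the resting IP, and in proliferating cells 99.2% ± 0.406 of the input and 98.4% ± 0.608 of the IP. The mature RNAs have the same length of 23 bases, so the split is the same per length. The Mir10b part in single libraries ran from 0.559% to 2.0%. In resting cells it was 1.21% and 0.917% in the inputs and 1.96% and 1.54% in the IPs. In proliferating cells it was 1.13% and 0.559% in the inputs and 1.14% and 2.0% in the IPs. Within each state both IPs thus lay above both inputs, by very little in proliferating cells, while groups of different states overlapped. The input values rest on 1 to 6 Mir10b counts per library, and no test was made. Over the 8 libraries the log2 CPM of the pair correlated with r = 0.97 (Spearman rho 0.86), a description over libraries that share their scaling and, for both genes, the same high and low groups. Together the pair took 0.139% ± 0.00212 of all counts in the resting input and 0.371% ± 0.00993 in the resting IP. In proliferating cells it took 0.106% ± 0.0310 of the input and 0.123% ± 0.0140 of the IP.

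Mir125a, by contrast, was highest in the resting inputs. It lies with Mir99b in a cluster inside the span of Spaca6: Mir99b (ENSMUSG00000065396.1, chr17:17830188-17830257) and Mir125a (ENSMUSG00000065479.2, chr17:17830812-17830879) are both on the plus strand with 554 bases between them. Mirlet7e lies between them and had no count in any library, but another feature is annotated across it on the minus strand, so its 0 is not read as a level. Mir125a had 196 and 148 counts in resting inputs 1 and 2, 226 and 65 in the much deeper IPs of these cells, and 15 and 24 counts against 77 and 88 in the inputs and IPs of proliferating cells. In CPM these were 549 and 364, 169 and 87.1, 42.4 and 84.2, and 113 and 74.7. Both resting inputs were above all 6 other libraries, both resting IPs were above both proliferating inputs, and the proliferating IPs overlapped both of these groups. Between resting inputs 1 and 2 the stromal markers (0.00641% and 0.00207% of the counts) and the epithelial markers (0.129% and 0.109%) ran in the order of Mir125a, and the myeloid Mir223 (1.2% and 2.9%), the erythroid markers (0.0114% and 0.0259%) and the endothelial Mir126a (0.0173% and 0.0253%) in the opposite order. The part of such cells in the level of Mir125a was not tested.

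Mir125a fell to 127.9 ± 57.8 CPM in the resting IP from 456 ± 131 CPM in the resting input, 3.53 times lower (log2 ratio -1.82, SE 0.45, edgeR adjusted p = 0.0013). The call held in 16 of 18 alternatives and was lost without resting input replicate 1 (-1.33, edgeR adjusted p = 0.085) and without both resting replicate 1 libraries (-1.74, edgeR adjusted p = 0.080). In proliferating cells Mir125a was at 93.7 ± 26.9 CPM in the IP and 63.3 ± 29.6 CPM in the input and did not pass (0.57, SE 0.49, edgeR adjusted p = 0.43). The difference between the states was itself tested. It was -2.40 (SE 0.66, edgeR adjusted p = 0.0089), the only one of the 5 genes to pass, and none passed in the other direction (Mir99a had an unadjusted edgeR p of 0.022), beside 9.59% of all features lower and 7.76% higher (21 and 17, but 7 and 15 with upper-quartile factors and 7 and 20 with library totals). The number of features called fell from 38 to 25 without resting input replicate 1, 11 without proliferating input replicate 1 and 13 without proliferating input replicate 2. Those called lower, as Mir125a was, fell from 21 to 4, 0 and 0 in these fits, to 13 without proliferating IP replicate 2 and to 4 without both resting replicate 1 libraries, and those called higher from 17 to 10 without proliferating IP replicate 1. The Mir125a call was made in 12 of 17 alternatives. It was lost with upper-quartile factors (-2.11, edgeR adjusted p = 0.057), without resting input replicate 1 (-1.67, edgeR adjusted p = 0.18), without proliferating input replicate 1 (-1.68, edgeR adjusted p = 0.15), without proliferating input replicate 2 (-2.43, edgeR adjusted p = 0.082) and without both resting replicate 1 libraries (-2.16, edgeR adjusted p = 0.11).

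**Figure D2:**
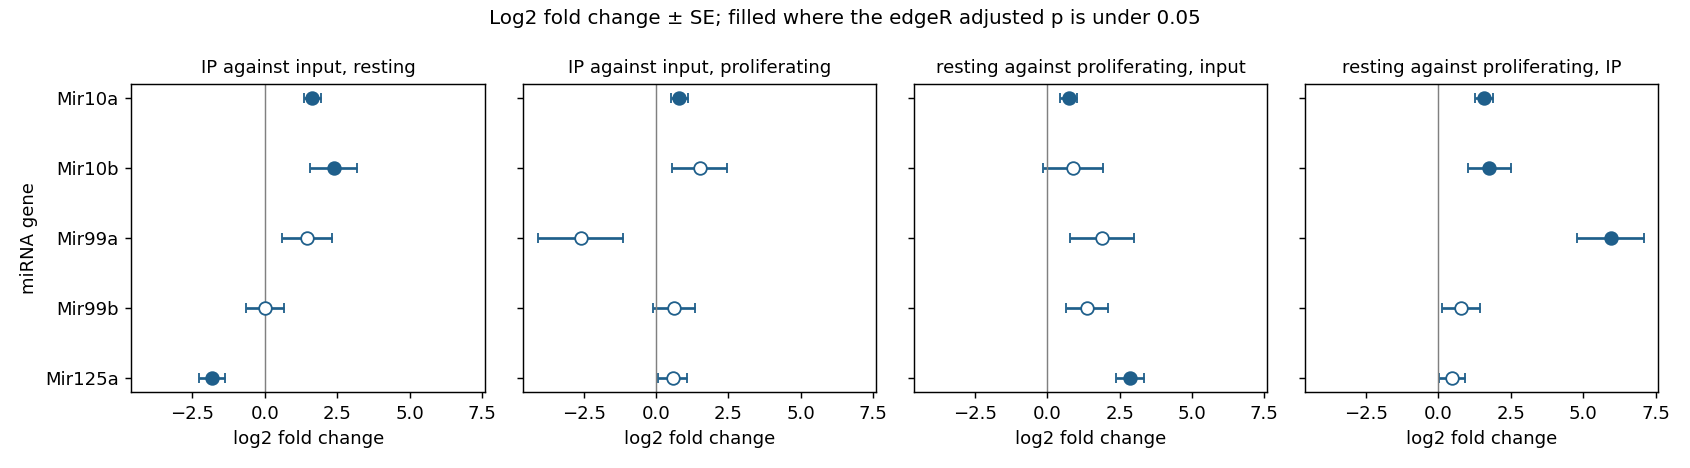
Log2 fold change ± SE (horizontal axis) of the 5 genes (vertical axis) in 4 comparisons, with filled points where the edgeR adjusted p is under 0.05. Mir125a lies at -1.82 for IP against input in resting cells and at 2.86 for resting against proliferating input, and Mir99a at 5.95 for resting against proliferating IP, a fitted value that depends on 2 counts.

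In the input 2 of the 5 genes were higher in resting than in proliferating cells, Mir125a and Mir10a, and none was lower (nor at an unadjusted edgeR p under 0.05), beside 23.3% of all features higher and 26.0% lower (51 and 57, but 59 and 39 with upper-quartile factors and 37 and 75 with library totals). The number called higher was 32 without proliferating input replicate 2, and the number called lower 34 without resting input replicate 2. Their median log2 fold change was 1.38, against -0.04 over all features. Mir125a was 7.28 times as high in the resting input (log2 ratio 2.86, SE 0.49, edgeR adjusted p = 7.3e-06), and this call held in all 18 alternatives (2.43 to 3.28). In the IP the same gene differed by 0.47 (SE 0.44, edgeR adjusted p = 0.37). There 3 of the 5 genes were higher in resting cells, Mir10a, Mir10b and Mir99a, and none was lower (again none at an unadjusted edgeR p under 0.05), beside 23.7% of all features higher and 28.3% lower (52 and 62, but 75 and 38 with upper-quartile factors). The median of the 5 was 1.58, against -0.21 over all features.

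In resting cells the cluster mate Mir99b had 33 and 19 input counts and 139 and 26 IP counts, and in proliferating cells 10 and 7 input counts and 26 and 51 IP counts. It passed in none of the 5 contrasts with edgeR, and none had an unadjusted p under 0.05 (the lowest was 0.068). In resting cells it was at 69.3 ± 48.8 CPM in the IP and 69.6 ± 32.3 CPM in the input (log2 ratio 0.02, SE 0.65, edgeR adjusted p = 0.99), and its sign turned with the scaling. The level was 26.4 ± 2.60 CPM in the proliferating input and 40.7 ± 3.69 CPM in the proliferating IP. Between the inputs the log2 fold change was 1.38 (SE 0.74, edgeR adjusted p = 0.11) and between the IPs 0.78 (SE 0.65, edgeR adjusted p = 0.31). In each resting group replicate 1 was the higher library, at 92.4 and 46.7 CPM in the inputs and 103.8 and 34.8 CPM in the IPs, so the IP range covered that of the inputs.

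Because both genes were counted in the same library, the share of Mir99b in the pair does not depend on scaling. Mir99b made up 14.4% (95% exact interval 10.1 to 19.6) and 11.4% (6.99 to 17.2) of the pair's counts in the resting inputs, and 38.1% (33.1 to 43.3) and 28.6% (19.6 to 39.0) in the resting IPs. Both resting inputs lay below both resting IPs, with group means of 12.9% ± 2.14 and 33.3% ± 6.73. In proliferating cells the groups overlapped, with shares of 40.0% and 22.6% for the inputs, on 25 and 31 counts of the pair, and 25.2% and 36.7% for the IPs. All 6 libraries other than the resting inputs held a larger Mir99b share than these. An exact permutation test of 2 libraries against 2 cannot go below p = 0.333, so no test was made. Per base of the mature RNA, 24 for miR-125a-5p and 22 for miR-99b-5p, the order was the same.

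**Figure D3:**
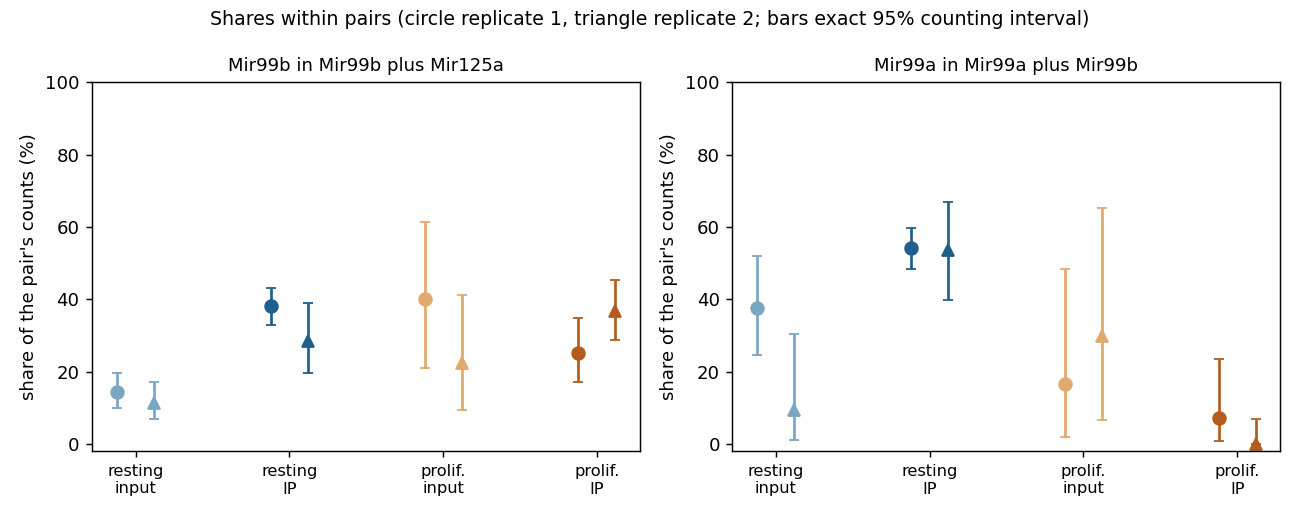
Share of the pair's counts in percent (vertical axis) held by Mir99b beside Mir125a (left) and by Mir99a beside Mir99b (right) in each library (horizontal axis, 4 groups), with exact 95% counting intervals. The Mir99b share is 14.4% and 11.4% in the resting inputs and from 22.6% to 40.0% elsewhere.

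Of the other genes with the miR-125 seed, Mir351 had the most counts. It had 15 and 33 in resting inputs 1 and 2, 26 and 22 in the resting IPs, 22 and 11 in proliferating inputs 1 and 2, and 24 and 32 in the IPs of these cells. It was tested and passed in none of the 5 contrasts, with a log2 ratio of -1.35 for the resting IP (SE 0.72, edgeR adjusted p = 0.16) and 0.28 between the inputs (SE 0.73, edgeR adjusted p = 0.75). Mir6367 and Mir6394 had no count. Mir125b-1 had 27 counts and Mir125b-2 had 20 over all libraries, 21 and 16 of them in resting IP replicate 1. Both encode the same mature 5′ arm, so their reads are not assigned with certainty. Neither passed the count filter, so neither was tested. Summed over all 6 genes, the miR-125 seed took 0.0537% ± 0.00720 of the resting input and 0.0142% ± 0.00418 of the resting IP. It took 0.0149% ± 0.00213 of the proliferating input and 0.0108% ± 0.00290 of the proliferating IP. Without Mir351 the resting values were 0.0474% ± 0.0103 and 0.0121% ± 0.00506, and the proliferating ones 0.00834% ± 0.00411 and 0.00810% ± 0.00241.

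Mir99a (ENSMUSG00000065530.1, chr16:77598936-77599000, plus strand) shares its seed with Mir99b and lies 656 bases before Mirlet7c-1. Resting inputs 1 and 2 held 20 and 2 counts and resting IPs 1 and 2 held 164 and 30, while proliferating cells gave 2 and 3 counts in the inputs and 2 and 0 in the IPs. The resting IPs stood above all proliferating libraries, but the replicates differed widely: 0.00557% (95% exact interval 0.00341 to 0.00861) against 0.000517% (6.3e-05 to 0.00187) of the counts in the resting inputs, and 0.00976% (0.00832 to 0.0114) against 0.00380% (0.00257 to 0.00543) in the resting IPs. Between the IPs the scaled ratio of 194 counts to 2 was 86.6, and its 95% exact counting interval ran from 23.6 to 720. The fit gave an edgeR adjusted p of 3.1e-05 for this difference, whose fitted size depends on the 2 counts, and the call held in all 17 alternatives. The 0 counts in proliferating IP replicate 2 allow a share of up to 0.000218%, taken as 3 counts of the total, and the exact 95% interval beside it ends at 0.000268%.

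No other contrast of Mir99a passed. In resting cells its IP differed from the input by 1.45 on the log2 scale (SE 0.86, edgeR adjusted p = 0.21), but without resting input replicate 1 it was 4.16 and passed (edgeR adjusted p = 0.019). The 2 IP and 5 input counts of proliferating cells stood in a scaled ratio of 0.137 (95% exact interval from counting 0.0131 to 0.839, edgeR adjusted p = 0.20). The difference between the states did not pass (edgeR adjusted p = 0.091) but did so without resting input replicate 1 (edgeR adjusted p = 0.0051). Between the inputs the log2 fold change was 1.90 (SE 1.10, edgeR adjusted p = 0.14). It turned to -0.70 without resting input replicate 1 (edgeR adjusted p = 0.76) and passed at 2.89 without resting input replicate 2 (edgeR adjusted p = 0.027).

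The 9 stromal markers were also unequal between the resting replicates. Their summed share was 0.00641% and 0.00207% in resting inputs 1 and 2, and 0.00410% and 0.000761% in resting IPs 1 and 2. In the proliferating libraries it ran from 0 to 0.000724%. Of the 9, Mir199a-2 and Mir214 had no count anywhere. Mir199b had 17 and 1 counts in resting inputs 1 and 2, of 23 and 8 for the list, and 14 and 3 in the resting IPs. Mir143 had 4 and 0 counts in the resting inputs and 15 and 1 in the resting IPs. Mir125b-1 (0 and 3) and Mir125b-2 (0 and 4) went the other way in the resting inputs, but not in the resting IPs (21 and 2, 16 and 0). Replicate 1 of both resting groups also held more of the epithelial markers (0.129% and 0.109% in the inputs, 0.209% and 0.197% in the IPs). It held less of Mir223, the erythroid markers and Mir126a. The stromal list stood higher in replicate 1 of both resting groups, as did the shares of Mir99a, Mir99b, Mir125a and Mir10b, but not that of Mir10a. This depends on scaling, since in CPM Mir10a too was higher in replicate 1 (1369.6 and 1327 in the inputs, 4481 and 3934 in the IPs). The list holds Mir100, Mir125b-1 and Mir125b-2, relatives of the genes described here. Without them, its other 6 members took 0.00613% and 0.000259% of resting inputs 1 and 2, and 0.00178% and 0.000507% of the resting IPs. The part of such cells in the level of Mir99a was not tested. The fit without both resting replicate 1 libraries does not test it, since resting replicate 2 still held stromal counts, 8 in the input and 6 in the IP.

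**Figure D4:**
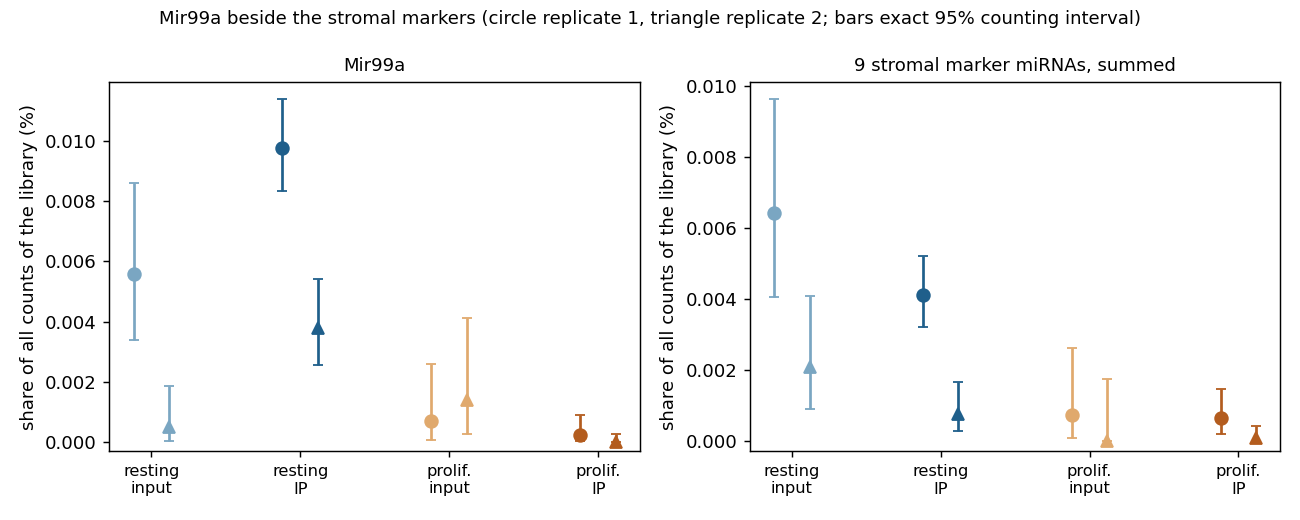
Share of all counts of a library in percent (vertical axis, separate scales) taken by Mir99a (left) and by the 9 stromal marker miRNAs together (right) in the 8 libraries (horizontal axis, 4 groups), with exact 95% counting intervals. Both are higher in replicate 1 (circles) than in replicate 2 (triangles) of the resting groups, and Mir99a is highest in resting IP replicate 1, at 0.00976%.

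The balance of the 2 miR-99 genes differed among the libraries, which was not tested at 2 against 2. Mir99a made up 37.7% and 9.52% of the counts of Mir99a plus Mir99b in the resting inputs and 54.1% and 53.6% of the resting IPs. In proliferating cells this share was 16.7% and 30.0% for the inputs and 7.14% and 0% for the IPs. Both resting IPs lay above the 6 other libraries and both proliferating IPs below them. The proliferating inputs rest on only 12 and 10 counts of the pair. Mir100, the third gene with this seed, had 7 counts in all libraries together, 4 of them in proliferating IP replicate 1. The seed as a whole took 0.0102% ± 0.00680 of the resting input, 0.0126% ± 0.00781 of the resting IP, 0.00451% ± 0.000242 of the proliferating input and 0.00387% ± 0.000225 of the proliferating IP.

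The counts do not separate the arms of a hairpin, and levels were set per base of the printed 5′ arm. The arms have 22 to 24 bases, and in the groups given here the genes had the same order in plain CPM. Whether the genes were captured and assigned equally well was not tested, so their order describes counts. On this scale levels in the resting input followed the order Mir10a (58.6 ± 1.31 CPM per base), Mir125a (19.0 ± 5.46), Mir99b (3.16 ± 1.47), Mir99a (1.38 ± 1.64) and Mir10b (0.632 ± 0.139). The last 3 overlapped in their spread except that Mir99b stood clear of Mir10b. In the resting IP Mir10a reached 183 ± 16.8 CPM per base, and the others, from Mir125a (5.33 ± 2.41) to Mir99b (3.15 ± 2.22), overlapped in their spread. In the proliferating IP the order was Mir10a (61.2 ± 7.24), Mir125a (3.90 ± 1.12), Mir99b (1.85 ± 0.168), Mir10b (0.954 ± 0.269) and Mir99a (0.0665 ± 0.0941), each pair of neighbours apart by more than their SDs together.

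Of the 6 cluster mates and relatives listed (Mir100, Mir125b-1, Mir125b-2, Mirlet7a-2, Mirlet7c-1 and Mirlet7e), 2 had enough counts to be tested. Mirlet7a-2, which lies beside Mir100, was lower in the resting than in the proliferating input (log2 ratio -2.07, SE 0.75, edgeR adjusted p = 0.023) and passed in no other contrast. Mirlet7c-1, the neighbour of Mir99a, passed in none, with a log2 fold change of 2.66 between the IPs (SE 1.18, edgeR adjusted p = 0.056) on 39, 8, 1 and 5 counts. Both belong to let-7, whose copies share mature sequences, so their counts may hold only part of the reads.

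Likeness of pattern was taken as Pearson r of log2 CPM over the 8 libraries, among 210 features with a mean of at least 10 CPM. It is a description without a test, and libraries of a group share their condition and depth. Nearest to Mir10a were Mir10b (0.97), Mir30b (0.96) and Mir28a (0.95), and nearest to Mir10b were Mir10a, Mir30b (0.94) and Mir181a-1 (0.93). By Spearman rho the names changed in part for every gene. Mir10a was then nearest to Mir32 (0.90), Mir22 (0.88) and Mir28a (0.88). Mir10b was nearest to Mir342 (0.98), Mir532 (0.98) and Mir181a-1 (0.95), so neither miR-10 gene was among the 3 nearest to the other. Mir125a was most like Mir542 (0.94), Mir29a (0.90) and Mir326 (0.88) by Pearson r, and like Mir542, Mir455 and Mir15a (0.93 each) by Spearman rho. The values that follow are Pearson r. Mir99a was most like Mir26a-2 (0.91), Mir141 of the epithelial markers (0.91) and Mir340 (0.88), and Mir99b like Mir339 (0.89), Mir361 (0.86) and Mir1843a (0.85). Across the 5 genes themselves r ran from 0.05 for Mir10b with Mir125a to 0.97 within the miR-10 pair, with 0.71 for the cluster mates Mir99b and Mir125a.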

How the data were processed

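Small RNA libraries (QIAseq kit, single-end NextSeq reads) were sequenced. The submitters' processing notes name STAR 2.7.9a, SAMtools 1.15 and mm10. The deposited tables, 1 for each cell state, hold raw counts per miRNA gene from deduplicated alignments, per the file headers. Cell state and table thus coincide, so a difference between states cannot be told apart from a difference between the tables. Each feature spans a hairpin, so its arms are counted together. The counter, its strand setting and how it treated multi-mapping reads are not stated in the labels or headers.

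Features were named by exact coordinates in RefSeq (GRCm38.p6), which named 1179 of 2202. Groups and replicate numbers came from titles. filterByExpr (minimum count 10) kept 219 features. edgeR 4.0.16 (R 4.3.3) fitted 4 groups with TMM factors and tested 5 contrasts, 2-sided, with Benjamini-Hochberg adjustment over all tested features (4 residual and 36.6 prior degrees of freedom, so most of the spread estimate is shared over features). SE is the absolute log2 fold change over the square root of F. CPM uses the counts in tested features times TMM factors, and shares use all counts with exact (Clopper-Pearson) 95% intervals, which cover counting error only. The limit for a count of 0 is 3 counts. No replicate pair was a repeated library: the smallest chi-square between replicates was 8.56 for each degree of freedom. Alternatives were DESeq2 1.42.0, other scalings and filters, fits of the 4 libraries compared, a replicate block and leaving libraries out. Leaving out both resting replicate 1 or both replicate 2 libraries was added after seeing the data, as were the sums with Mir351 and of the 6 stromal markers. All 5 genes were named in every comparison, with the 3 features most like each. Genes, lists and rules were chosen with earlier results of these data known.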

Additional observations from a re-analysis of the deposited data

Results flagged for a closer look

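The IP-to-input fold of Mir125a differed between the cell states by a test of the difference itself, at -2.40 on the log2 scale for resting minus proliferating cells (edgeR adjusted p = 0.0089). This call was made in 12 of 17 alternatives, where the value ran from -3.08 to -1.67, and was lost with upper-quartile factors. Mir125a was lower in the resting IP than in its input, while in proliferating cells the fold did not pass. Groups of 2 libraries are too small for a test for outlying libraries.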

How the results depend on the processing

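Of 426 recomputed log2 fold changes of the 5 genes, 367 kept their direction and side of the threshold, 37 lost the call, 7 gained it and 15 changed sign. Relative to TMM, upper-quartile factors moved the median of all features by 0.16, -0.13, 0.30, 0.36 and 0.67 (IP against input in resting cells, in proliferating cells, their difference, states in the input, states in the IP), and library totals by -0.24, -0.61, 0.36, -0.36 and 0.00. The resting IP fold of Mir99b, 0.02 as reported, was -0.0022 with DESeq2 size factors, -0.27 with library totals, -0.0078 with DESeq2's Wald test, -0.076 with the 4 libraries alone, -0.11 without both resting replicate 1 libraries and -1.06 to 0.73 with 1 library left out. Its difference between states ran from -1.74 to 0.39 and its fold between the IPs from -0.13 to 1.25 with 1 library left out. The proliferating IP fold of Mir125a was -0.039 with library totals. Mir99a between the inputs was -0.70 without both resting replicate 1 libraries and -0.70 to 2.89 with 1 library left out. Of the 5 genes, 0 were called for the proliferating IP with DESeq2 size factors, upper-quartile factors, library totals, no filter or without both resting replicate 1 libraries, and 0 to 1 with 1 library left out, where 30 to 63 features were called. For the difference between states 0 were called with upper-quartile factors and without both resting replicate 1 libraries, 2 with library totals, and 0 to 1 with 1 library left out. The features called for it were 25 with DESeq2 size factors, 22 with upper-quartile factors, 21 without both resting replicate 1 libraries and 11 to 46 with 1 library left out. Between the inputs 1 gene was called with library totals, no filter or without both resting replicate 1 libraries, and 1 to 2 with 1 library left out. Without both resting replicate 1 libraries 1 gene and 35 features were called for the resting IP. A minimum count of 50 left only Mir10a and Mir125a tested, and 1 was called between the IPs. Unless stated, the cause was not tested. A library left out leaves a group of 1, assumed to vary like the others.

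Replicate differences correlated between groups with r from -0.12 to 0.18 over 219 features. Counting error in features of low count also lowers r, so it cannot decide whether equal replicate numbers mark paired libraries. With a replicate block the features called were 62, 60, 40, 100 and 109 in the 5 contrasts, in the order above, against 63, 59, 38, 108 and 114 as reported. Mir99a then passed for the difference between states (4.39, edgeR adjusted p = 0.049), making 2 of the 5 genes, Mir10b between the IPs did not pass (1.71, edgeR adjusted p = 0.069), and Mir99b in the resting IP was at -0.053. Low counts limit Mir10b, Mir99a and Mir99b, each with under 320 counts over all libraries.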
